A study of Capra hircus with 2 samples.

Results

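EEF1A1, EEF1A2 and EEF2, the translation elongation factors described here, are 3 of the 11663 transcript accessions that had reads in longissimus thoracis muscle of Chinese Xuhuai goats (Capra hircus). They were chosen by accession, with earlier results of these data in view and for the very large excess of EEF1A2 in the older muscle, so the values below are a description and support no test. The accessions are cattle RefSeq transcripts, NM_174535 for EEF1A1, NM_001037464 for EEF1A2 and NM_001075121 for EEF2. The deposited files do not pair accessions with gene names, and no genomic position is given. RNA was sequenced from 2 libraries of this back muscle, 1 from fetuses at day 90 of gestation and 1 from goats aged 6 months. No genotype or treatment is named for either stage. The labels describe embryo collection for both libraries, and neither the sampling of the older muscle nor the number of animals is stated in them. With 1 library per stage no difference below has a replicate check. Intervals are 95% intervals of counting error for these libraries, not for the stages.

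Elongation factors carry the ribosome along the messenger RNA. eEF1A, a GTP-binding protein, brings each aminoacyl-tRNA to the ribosome, and eEF2, another GTP-binding protein, then moves the ribosome on by a codon. In mammals eEF1A is encoded by a pair of genes with closely similar proteins. EEF1A1 is expressed in nearly all tissues, and EEF1A2 is known chiefly from adult skeletal muscle, heart and neurons. In rodents the muscle form changes from EEF1A1 to EEF1A2 after birth, and loss of Eef1a2 causes the muscle wasting and motor neuron degeneration of the wasted mouse. EEF1A1 and EEF2 transcripts both begin with a terminal oligopyrimidine tract, a 5' feature they share with ribosomal protein transcripts.

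The fetal library held 12811117 unique reads over 11393 accessions and the 6-month library 9144138 over 10850. All 3 elongation factors had reads in both libraries. Levels are given as RPKM, the authors' reads per kilobase of transcript per 1000000 unique reads. This scales for transcript length, but not for how readily the reads of a gene are assigned to it. Goat reads are listed here under cattle transcripts, and how far this alters the levels of different genes was not tested. Because 0 accessions could be matched to a named gene of the goat reference, the muscle identity of the libraries was not checked against marker genes. The other factors of translation and the markers of neurons, heart and other cell types that had been listed could not be examined for the same reason. In whole tissue, fewer cells of a type and less RNA per cell cannot be told apart.

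EEF1A1, the widely expressed form of eEF1A, had 363048 fetal reads and 19373 reads at 6 months. Its level was 12343 RPKM in the fetal library and 923 RPKM at 6 months. EEF1A1 thus had the most reads of any transcript in the fetal library, 2.83% of the total, and 0.212% of the total at 6 months. By RPKM it ranked 2 in the fetal library and 106 at 6 months. As a share of reads, EEF1A1 was 13.4-fold higher in the fetal library (13.2 to 13.6). On the log2(RPKM + 1) scale used for all accessions, the 6-month value minus the fetal value was -3.74.

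EEF1A2, the form known from adult muscle, heart and neurons, showed the opposite difference. Only 175 fetal reads were assigned to it, against 51367 reads at 6 months. Its level was 7.38 RPKM in the fetal library (6.33 to 8.56), below the median of listed transcripts (0.897 times that median), and 3035 RPKM at 6 months, 575 times the median of that library. By RPKM it ranked 6002 in the fetal library and 31 at 6 months. As a share of reads, EEF1A2 was 411-fold higher at 6 months (355 to 480), and the difference was 8.50 log2 units. The fetal level was low but well above the 3 reads that a count of 0 would allow.

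EEF2, the translocation factor encoded by a single gene, differed far less. Its reads numbered 58359 at the fetal stage and 19414 at 6 months, which gave levels of 1424 and 664 RPKM. Its RPKM rank was 102 in the fetal library and 148 at 6 months. As a share of reads, EEF2 was 2.15-fold higher in the fetal library (2.11 to 2.18), a difference of -1.10 log2 units.

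**Figure D1:**
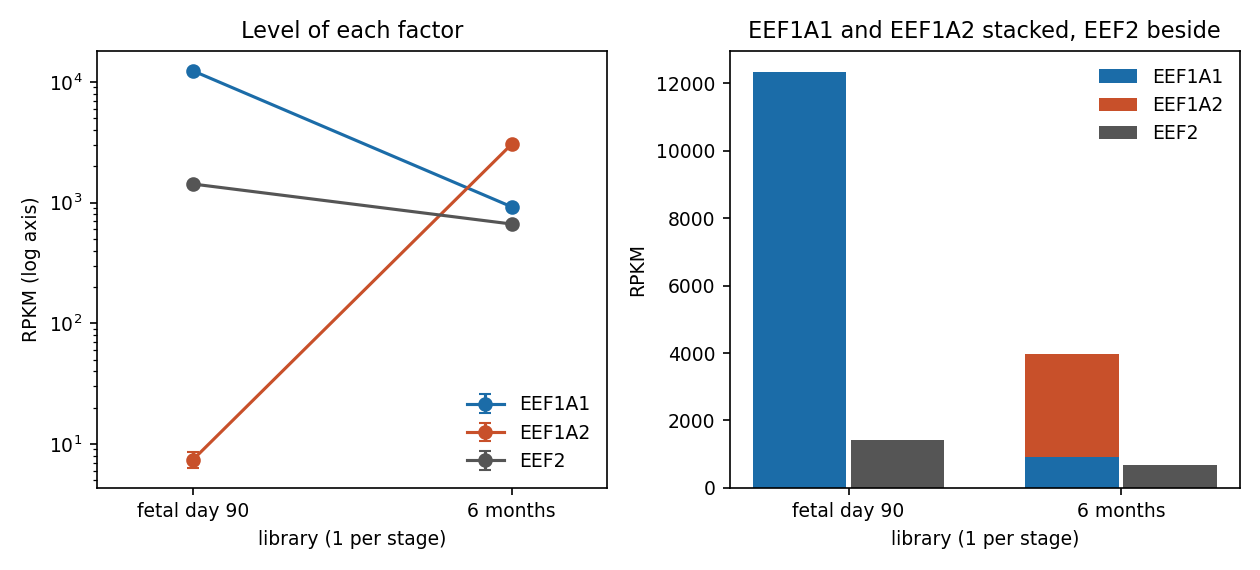
Left, RPKM of EEF1A1, EEF1A2 and EEF2 in the fetal day 90 and the 6-month library on a log axis, with points for single libraries and bars for the 95% counting interval (smaller than the point except for fetal EEF1A2). Right, the same RPKM on a linear axis, with EEF1A2 stacked on EEF1A1 and EEF2 beside them. EEF1A1 is at 12343 and 923, EEF1A2 at 7.38 and 3035, and EEF2 at 1424 and 664, and the stack is lower at 6 months.

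The order of the levels per length was different in each library. In the fetal library EEF1A1 came first, EEF2 second and EEF1A2 last. At 6 months EEF1A2 came first, EEF1A1 second and EEF2 last. The closest neighbours in these orders were EEF1A1 and EEF2 at 6 months, where EEF1A1 was 1.39 times as high as EEF2 in RPKM (1.36 to 1.42). That gap comes from transcript length, 2296 bases for EEF1A1 and 3198 for EEF2, since their read counts of 19373 and 19414 were nearly the same. In the fetal library EEF1A1 was 8.66 times as high as EEF2 in RPKM (8.59 to 8.74), and EEF2 was 193 times as high as EEF1A2 (166 to 225).

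The balance of the eEF1A forms can be read within each library, so it does not depend on how the libraries are scaled to each other. In the fetal library the RPKM of EEF1A1 was 1672 times that of EEF1A2 (1442 to 1951). EEF1A2 made up 0.0598% of the RPKM of both forms there (0.0512% to 0.0693%). At 6 months the RPKM of EEF1A1 was 0.304 times that of EEF1A2 (0.299 to 0.309), and EEF1A2 made up 76.7% of the RPKM of both (76.4% to 77.0%). EEF1A1 still supplied 23.3% of eEF1A RPKM at 6 months. Between the libraries the ratio of EEF1A1 to EEF1A2 differed 5501-fold (4739 to 6385), and the width of this interval comes almost wholly from the 175 fetal reads of EEF1A2.

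The summed level of both eEF1A transcripts was lower at 6 months. EEF1A1 and EEF1A2 together stood at 12350 RPKM in the fetal library (12310 to 12390) and at 3958 RPKM at 6 months (3928 to 3987). The sum was 3.12-fold higher in the fetal library (3.10 to 3.15), a difference of -1.64 log2 units. EEF1A1 was lower by 11420 RPKM at 6 months and EEF1A2 was higher by 3027 RPKM, so the EEF1A2 excess came to 26.5% of the EEF1A1 deficit. In read shares without length, both forms together made up 2.84% of the fetal library and 0.774% of the 6-month library.

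The size of this difference in the sum depends on how the libraries are scaled to each other. Centring on the median ratio of the 8201 accessions that reached 1 RPKM in both libraries raised all 6-month values by 0.58 log2 units against the fetal ones. After that centring the sum differed by -1.06 log2 units and the EEF1A2 excess was 41.3% of the EEF1A1 deficit. With transcripts-per-million (TPM) scaling the sum differed by -1.54. An upward shift of 1.64 log2 units would make the sums equal. The largest shift among the 4 other scalings tried was 0.58, but all 4 rest on these same reads and set no bound on the shift. Whether the libraries differ by a larger shift was not tested. EEF1A1 remained lower at 6 months and EEF1A2 higher under each of the 4, at -3.16 and 9.08 log2 units after median centring. Shifts of at most 0.58 could not have reversed either of these differences.

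The ratio of eEF1A to eEF2 transcripts is free of that scaling. The RPKM of EEF1A1 and EEF1A2 together was 8.67 times that of EEF2 in the fetal library (8.59 to 8.75) and 5.96 times at 6 months (5.87 to 6.06). The ratio was therefore 1.45 times as high in the fetal library (1.43 to 1.48), a difference of -0.54 log2 units. Against EEF2, EEF1A2 by itself went from 0.00518 times its RPKM in the fetal library to 4.57 times at 6 months. The summed eEF1A level and EEF2 were thus both lower at 6 months, and their ratio differed far less than the balance of EEF1A1 and EEF1A2.

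**Figure D2:**
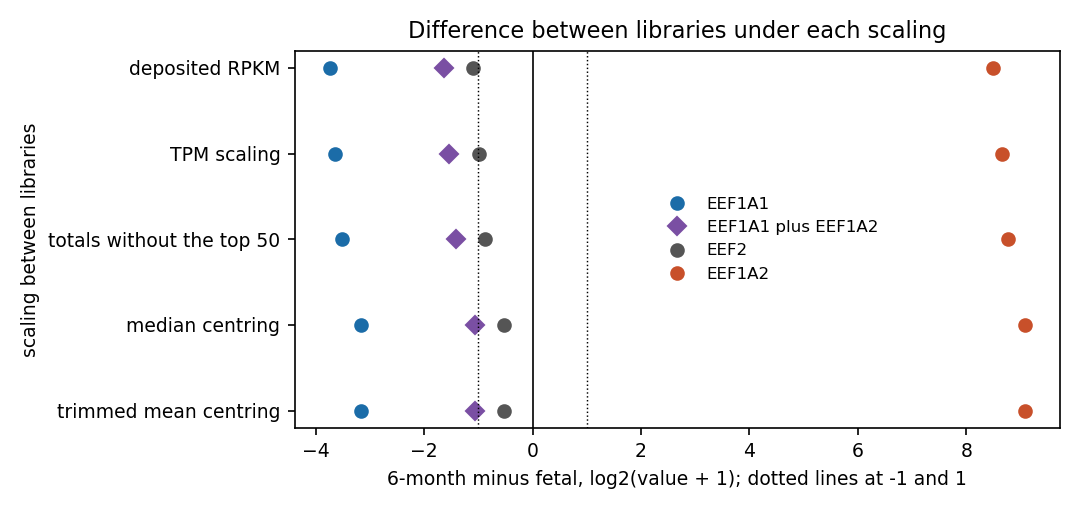
Difference between the 6-month and the fetal library (x axis, log2 of value plus 1, 6-month minus fetal) for EEF1A1, EEF1A2, their sum and EEF2 under 5 scalings (y axis). EEF1A1 stays near -3 to -4 and EEF1A2 near 8 to 9, the sum runs from -1.64 to -1.06, and EEF2 runs from -1.10 on deposited RPKM to -0.52 after centring.

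The background of the comparison differs by direction. Among the 9705 accessions that reached 1 RPKM in 1 library or both, 35.1% were at least 1 log2 unit (about 2-fold) higher in the fetal library and 9.46% were at least 1 unit higher at 6 months. Past this threshold, EEF1A1 and EEF2 were 2 of the 3411 fetal calls and EEF1A2 was 1 of the 918 calls at 6 months. The median difference over all 9705 was -0.61 log2 units, and that of the 3 elongation factors was the EEF2 value of -1.10. After median centring the background was 22.3% for fetal calls and 17.2% for 6-month calls.

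EEF2 lay inside the bulk of transcripts. Its difference of -1.10 was exceeded in size, on the fetal side, by 3057 of the 9705 accessions. Its call as higher in the fetal library was lost under all 4 other scalings, with -0.99 by TPM, -0.87 when the 50 leading accessions by summed RPKM were left out of the library totals, and -0.52 by either centring. Of the 55 other accessions within 50% of the fetal RPKM of EEF2, 38 differed further toward the fetal library, and their median difference was -1.94. A set taken by its fetal level favours differences in that direction.

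EEF1A1 was near the fetal end, and 121 of the 9705 accessions differed further toward the fetal library. Of the 12 other accessions within 50% of its fetal RPKM, 1 differed further in that direction. The 6-month RPKM of those 12 ran from 214 to 18079 with a median of 2293, against 923 for EEF1A1. This set, too, was taken by its fetal level.

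EEF1A2 had the largest 6-month excess of the 9705 accessions on the log2(RPKM + 1) scale, the value for which it was chosen. That place depends on the pseudocount, since 3 accessions passed it with a pseudocount of 0.1 and 0 with a pseudocount of 5. By the ratio of read shares, 3 accessions with fetal reads exceeded it, and each of them had at most 2 fetal reads and an RPKM of at most 352 at 6 months. A further 15 of the accessions compared had 0 fetal reads, with at most 122 RPKM at 6 months. The 564 other accessions within 10% of the fetal RPKM of EEF1A2 had a median of 4.13 RPKM at 6 months (interquartile range 2.45 to 7.65), and the highest of them reached 234, against 3035 for EEF1A2. The 30 accessions above EEF1A2 at 6 months had fetal levels of 59.6 RPKM or more, with a median of 1896, against 7.38 for EEF1A2. Since EEF1A2 was chosen for its 6-month excess, its standing apart from both sets follows from that choice.

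The accessions nearest to each eEF1A form were found by Euclidean distance over the log2(RPKM + 1) of both libraries, which is a likeness over only 2 values. Nearest to EEF1A1 was NM_001034438, at 7833 RPKM in the fetal library and 774 at 6 months (distance 0.70), followed by NM_174379 at 6073 and 1018 RPKM (distance 1.03). Nearest to EEF1A2 was NM_001076157, at 4.58 RPKM in the fetal library and 1469 at 6 months (distance 1.20), followed by NM_001034656 at 5.67 and 970 RPKM (distance 1.68). No accession lay within a distance of 1 of EEF1A2, and 1 did so for EEF1A1. These accessions have no gene name in the sources used here.

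**Figure D3:**
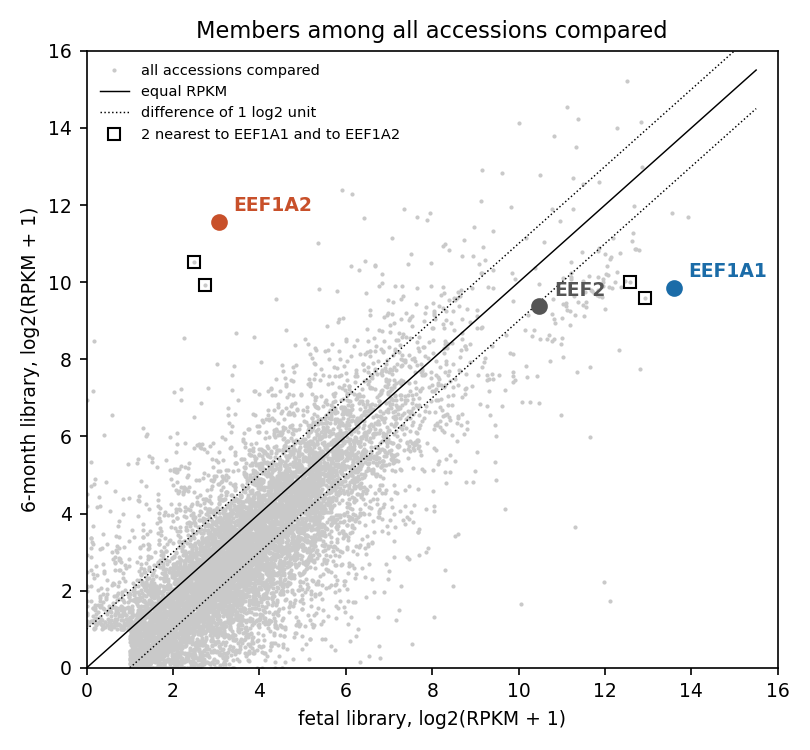
Each of the 9705 accessions compared (grey points) by its level in the fetal library (x axis) and in the 6-month library (y axis), both as log2(RPKM + 1), with the 3 elongation factors coloured and the nearest accessions boxed. EEF1A2 stands apart at the upper left, and EEF1A1 lies low among the most abundant fetal transcripts. EEF2 is close to the dotted line that marks a difference of 1 log2 unit.

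EEF1A1 and EEF1A2 are close copies of each other in their coding part, and EEF1A1 has many processed pseudogenes in mammals, so the assignment of reads between them is uncertain. The deposited counts are of unique reads, and the sources used here do not say how reads matching several transcripts were treated. The 175 fetal reads of EEF1A2 came to 0.0482% of the fetal EEF1A1 reads. At 6 months the EEF1A1 reads came to 37.7% of the EEF1A2 reads. How many reads of either form could have come from the other was not tested in either library.

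Coverage, the deposited percentage of a transcript's length that carried reads, was not used in choosing these genes. The fetal EEF1A2 reads were spread over 86.0% of the 1851 bases, or 1592 bases, at 8.51 read-bases per base. Among 482 accessions within 25% of both that depth and that length, the median coverage was 79.4% (interquartile range 69.8% to 86.6%). The few fetal EEF1A2 reads thus lay along most of the transcript, at a coverage above that of 350 of those 482. At 6 months EEF1A2 was covered over 96.0%, with 74 bases uncovered at 2498 read-bases per base.

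All 3 transcripts were partly uncovered in both libraries. EEF1A1 was the least covered of the 3 at 6 months, and EEF1A2 was the least covered in the fetal library. Reads covered 88.5% of EEF1A1 in the fetal library, at 14231 read-bases per base, and 86.7% at 6 months, at 759. Of 14 fetal accessions within 25% of its length and at 1000 read-bases per base or more, 5 were covered less, and the median was 92.3% (interquartile range 86.5% to 94.7%). Of 10 accessions within 25% of its length and depth at 6 months, 2 were covered less, and the median was 92.2% (87.4% to 97.3%). The uncovered length was 264 bases in the fetal library and 306 bases at 6 months. That is 42 bases more, at an 18.7-fold lower read depth. EEF2 was covered over 99.3% in the fetal library and 99.0% at 6 months. Where the uncovered bases lie in each transcript was not analysed here, and a level per length counts those bases in. A covered length was also put in place of the transcript length. For each transcript it was the larger of the values of the 2 libraries, and it was used for both libraries. With it the EEF1A1 to EEF1A2 ratio was 1814 in the fetal library and 0.330 at 6 months. The ratio with each library's own covered length was not computed.

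**Figure D4:**
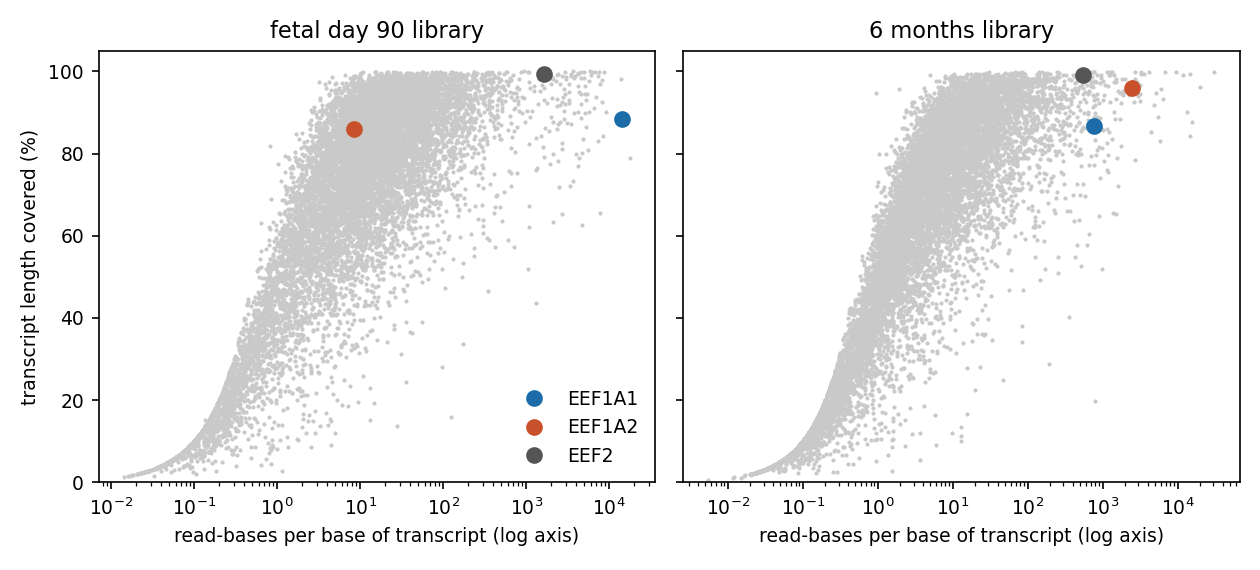
Percentage of transcript length covered (y axis) against read-bases per base of transcript (x axis, log scale, reads times 90 bases over length) for all accessions with reads (grey) in the fetal (left) and the 6-month library (right), with EEF1A1, EEF1A2 and EEF2 coloured. Fetal EEF1A2 lies in the upper part of the cloud at 8.51 read-bases per base and 86.0%, while EEF1A1 lies at 88.5% and 86.7%.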

How the data were processed

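Goat longissimus thoracis RNA, extracted with Trizol per the labels' protocols, was sequenced as 1 library per stage. Each file deposited by the authors holds, per the file headers, an accession's count of unique reads, its length, the percent of that length covered and its RPKM. No aligner, counting rule, strand setting or genome build is given in the sources used here. Counts summed to the total in the header, and RPKM followed from count, length and total. A missing accession was taken as 0 reads. A single read covered 90 bases in all accessions with 1 read, which sets the read-bases per base.

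Differences were log2(RPKM + 1), 6-month minus fetal, over accessions that reached 1 RPKM in 1 library or both, and were called at 1 log2 unit. With 1 library per stage no test or p-value was possible. Read ratios have exact conditional binomial (Clopper-Pearson) 95% intervals, single levels exact Poisson intervals, and sums and ratios of ratios intervals from Poisson error on the log or linear scale. They hold counting error alone, and PCR copies of a molecule count as separate reads. Only the fold call and the interval of a read ratio between libraries were tested on simulated data. Those data were Poisson counts with planted rises and falls, without variation between animals. The sums, other scalings and coverage sets were not tested in that way. Members, the 7 lists of translation genes and the rule for named accessions (the members and the 2 nearest accessions to each eEF1A form) were chosen with earlier results of these data known, and the lists could not be matched. Alternatives covered scaling, pseudocount, minimum RPKM, threshold and transcript length. Computations used SciPy 1.17.1, NumPy 2.4.6 and pandas 2.3.3 under Python 3.11.15, and plots matplotlib 3.10.9.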

Additional observations from a re-analysis of the deposited data

How the results depend on the processing

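No paired analysis was possible because each stage has 1 library, and for the same reason none could be left out. None of the 25 alternatives computed for a difference between libraries reversed its direction. A change of pseudocount cannot reverse a direction. The scalings shift all 6-month values alike against the fetal ones, by at most 0.58 log2 units. Each difference was larger than that on deposited RPKM, so this count gives little check of direction. The cause of the changes below was not tested. With TPM scaling the differences were -3.63 for EEF1A1, -0.99 for EEF2 and -1.54 for the eEF1A sum. With totals without the 50 most abundant accessions they were -3.51, -0.87 and -1.41, and 8.77 for EEF1A2. Median centring gave -3.16, -0.52, -1.06 and 9.08, and trimmed mean centring, with 30% left off at each end, gave -3.16, -0.52, -1.06 and 9.08. A pseudocount of 5 gave 7.94 for EEF1A2. Without length, the sum differed by -1.87, the EEF1A1 to EEF1A2 ratio was 2075 in the fetal library and 0.377 at 6 months, the EEF1A2 share 0.0482% and 72.6%, and the ratio of the sum to EEF2 6.22 and 3.64. With effective length the last ratio was 8.77 and 6.07. With covered length, taken for each transcript from the library that covered more of it, the ratio of the sum to EEF2 was 9.73 and 6.29. With the same covered length the 6-month EEF1A1 to EEF1A2 ratio was 0.330 and the EEF1A2 share 75.2%. The 3411 fetal calls became 1811 with a pseudocount of 5, 1051 with a threshold of 2, 2162 with median and 2157 with trimmed mean centring. The 918 calls at 6 months became 339 with the threshold of 2, and 1674 and 1678 with these centrings. The fetal share of calls was 78.8% on deposited RPKM and 56.4% after median centring. Fetal EEF1A2, with 175 reads, had the fewest reads of the members and the widest counting interval for its level.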
